A study of Mus musculus with 58 samples.

Results

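The injured mice with human APOE4 and those with human APOE3 were compared where both carried 2 functional copies of Abca1. They were 7 E4/Abca1+/+ TBI mice (4 male, 3 female) and 8 E3/Abca1+/+ TBI mice (4 male, 4 female), chosen by the labels alone, 15 of the 58 mice of the study. Both groups were targeted replacement mice, in which the human isoform stands in place of mouse Apoe, stated to be on a C57BL/6 background, and both were 3 months old. Each isoform comes from its own mouse line in every comparison of the study, so a difference between isoforms and a difference between the lines elsewhere in the genome cannot be told apart. A controlled cortical impact to the left hemisphere (1.0 mm deep, 3.0 mm tip, 3 m/s, through a 4.5 mm craniotomy) preceded removal of cortex and hippocampus from a 1.5 mm coronal section by 14 days. Beside them stood 15 sham Abca1+/+ mice (7 E4, 8 E3), which had the craniotomy without the impact, and 28 mice with 1 functional copy of Abca1 (14 TBI, 14 sham). RNA was read from bulk tissue, so fewer cells of a type and less RNA per cell cannot be told apart.

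APOE is the main lipid carrier of the brain, released chiefly by astrocytes and, after injury, by microglia, and ABCA1 is the transporter that loads it with cholesterol and phospholipid. The isoforms differ by a single residue, and E4 is less well lipidated and is the commonest inherited risk for late Alzheimer's disease. The comparison asks which transcripts differed by isoform in an injured brain whose ABCA1 was intact.

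Total counts in the 15 libraries ran from 4719044 to 17148953, with a median of 6835372 in E4 and 7829194 in E3. Xist and the Y-linked genes matched the labelled sex in 15 of 15 mice. Markers of excitatory neurons, interneurons, hippocampus, astrocytes, microglia and myelin were counted in both groups, and 0 of these markers were at 0 in every mouse. Markers of the choroid plexus, the epithelium that makes cerebrospinal fluid, were uneven. Their summed level had a median of 25.0 CPM (counts scaled to library size) in E4 and 27.0 CPM in E3 but reached 1880 and 1430 CPM, and 3 mice stood apart (E4 mice 5 and 6, E3 mouse 7). The row of Apoe itself held 19.4 to 26.1 CPM in E4 and 16.5 to 27.7 CPM in E3, with medians of 22.8 in both. The reads were aligned to the mouse genome, so this row does not check which human isoform a mouse carried. Abca1 held 98.7 to 296 CPM in E4 (median 121) and 123 to 283 CPM in E3 (median 147), a log2 fold change of -0.13 (SE 0.23, adjusted p = 0.988, edgeR).

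Few transcripts separated the isoforms. Of 14014 genes tested with edgeR's quasi-likelihood test, 29 (0.207%) passed an adjusted p of 0.05. Of these 20 (0.143%) were higher and 9 (0.0642%) lower in E4. The unadjusted p was under 0.05 for 1011 genes (7.21%), 539 higher and 472 lower. The CPM of the 7 E4 mice did not overlap that of the 8 E3 mice for 36 genes (0.257%), of which 20 were among the 29, 15 with E4 above and 5 with E4 below. The number of genes past the threshold moved with single mice, from 15 to 32 as each mouse was left out in turn (32 without E4 mouse 6). It was 15 without E3 mouse 2, 3 or 4, 19 without E3 mouse 5, 17 without E3 mouse 6, 18 without E4 mouse 1 and 17 without E4 mouse 4. Without the 3 mice high in choroid plexus markers it was 16 (11 higher, 5 lower), 14 of them among the 29. In males alone (4 against 4) it was 41, and in females alone (3 E4 against 4 E3) it was 1, 4833420G17Rik (log2 fold change -2.18, adjusted p = 0.0104), with 572 genes at an unadjusted p under 0.05.

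**Figure D1:**
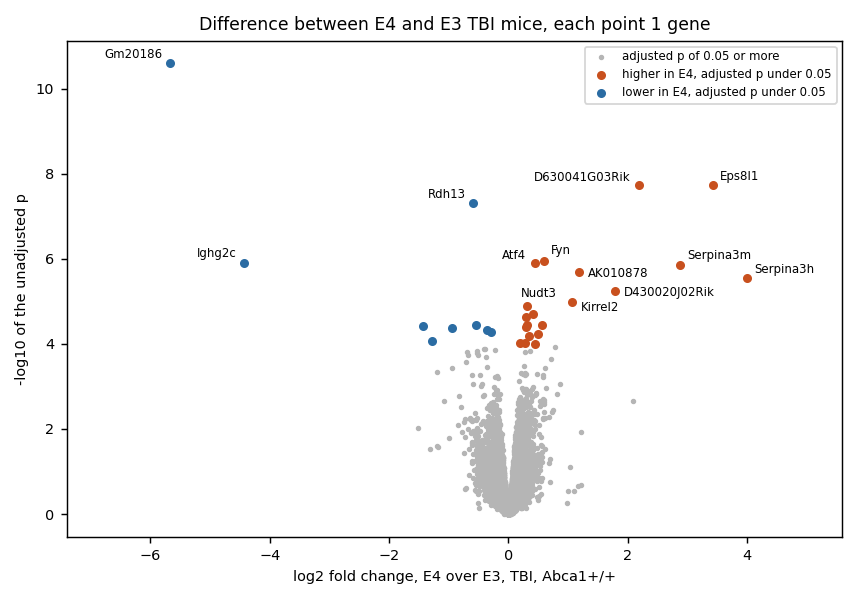
Each point is 1 of the 14014 genes tested, with the log2 fold change of E4 over E3 in TBI Abca1+/+ mice on the x axis and -log10 of the unadjusted p on the y axis. The 20 genes higher in E4 are orange, the 9 lower are blue, and Gm20186 stands farthest out on both axes.

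The largest differences were close to on and off. Gm20186 and Ighg2c passed the filter on low counts only through the E3 mice. Eps8l1, Serpina3h, D630041G03Rik and Serpina3m passed it only through the E4 mice. Their place among the largest differences and their lack of overlap are a description, since the filter kept them for the group where they were high. Gm20186, a long intergenic RNA at chr6:18845910-18848207 (minus strand, GENCODE vM21 on GRCm38), was at 0 counts in 5 of the 7 E4 TBI mice and never above 0.177 CPM, while the E3 mice held 1.75 to 2.96 CPM (median 2.24). The groups did not overlap. Summed over mice it had 2 counts in E4 and 171 in E3, a rate 71.8 times higher in E3 (95% exact interval 19.6 to 598, which covers counting error only; adjusted p = 3.54e-07, edgeR). Ighg2c, the constant region of an immunoglobulin heavy chain made by B lineage cells, held 0 to 0.216 CPM in E4 (median 0.177) and 1.15 to 10.7 CPM in E3 (median 2.21). Its counts summed to 10 in E4 and 328 in E3, a rate 27.6 times higher in E3 (95% exact interval 14.8 to 58.0; adjusted p = 0.00241, edgeR). E3 mouse 1 gave 184 of the 328 counts, and without it the rate was 15.6 times higher in E3 (95% exact interval 8.27 to 33.3). Among 13 markers of lymphocytes and neutrophils, 4 are listed in the table, their summed level was 0.866 to 15.3 CPM in E4 and 1.83 to 8.62 CPM in E3, and none passed the filter on low counts. Their part in the Ighg2c difference was not tested.

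Serpina3m and Serpina3h belong to a cluster of serine protease inhibitor genes on chromosome 12. Serpina3m (chr12:104387157-104394259) held 6.11 to 38.3 CPM in E4 (median 8.28) against 0.517 to 2.82 in E3 (median 1.84), with every E4 mouse above every E3 mouse. Its log2 fold change was 2.88 (SE 0.41, adjusted p = 0.00241). Serpina3h (chr12:104247896-104254405), a transcribed pseudogene, held 1.51 to 21.7 CPM in E4 (median 4.42) against 0.117 to 0.625 in E3 (median 0.392). Its log2 fold change was 3.995 (SE 0.60, adjusted p = 0.00402), again without overlap, and 3.25 without E4 mouse 7, which gave 228 of the 435 counts in E4. E4 mouse 6, with the highest Serpina3m, also had the highest injury index of the 15 mice (6.96), and without the 3 choroid-rich mice, of which it is 1, Serpina3m still differed by 2.41 on the log2 scale. Of the paralogs, 2 more were tested and neither passed. Serpina3n, the reactive astrocyte serpin, held 115 to 794 CPM in E4 and 112 to 352 CPM in E3 (log2 fold change 0.35, SE 0.36, adjusted p = 0.957), and Serpina3g differed by -0.10 (SE 0.32). These paralogs share sequence, so their counts are uncertain where reads could be split between them.

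Eps8l1, an adaptor of the actin cytoskeleton related to the EGF receptor substrate Eps8, held 1.73 to 6.77 CPM in E4 (median 3.74) and 0 to 0.583 CPM in E3 (median 0.395), a log2 fold change of 3.43 (SE 0.36, adjusted p = 8.59e-05). Within its span lies D630041G03Rik, a long noncoding RNA, at 2.31 to 4.80 CPM in E4 (median 3.24) and 0.382 to 1.36 CPM in E3 (median 0.666; log2 fold change 2.20, SE 0.23, adjusted p = 8.59e-05). Both overlap Rdh13, a mitochondrial retinol dehydrogenase, which went the other way. Rdh13 held 24.2 to 28.6 CPM in E4 (median 26.7) and 35.4 to 44.7 CPM in E3 (median 38.4), a log2 fold change of -0.59 (SE 0.07, adjusted p = 0.000171). None of these 3 genes overlapped between groups. They lie at chr7:4460638-4480487, chr7:4467245-4470884 and chr7:4425665-4471280, and the strand setting of the counting is not stated, so reads of the shared stretch cannot be assigned to 1 of them.

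Fyn, Atf4, Ptpn11 and Adar differed by smaller folds, without overlap between the groups. Fyn, a Src family tyrosine kinase of neurons and myelinating cells, held 136 to 155 CPM in E4 (median 139) and 76.1 to 118 CPM in E3 (median 89.8), a log2 fold change of 0.59 (SE 0.08, adjusted p = 0.00241). Atf4, the transcription factor of the integrated stress response, held 51.5 to 66.2 CPM in E4 (median 57.4) and 37.5 to 46.7 CPM in E3 (median 41.8), a log2 fold change of 0.45 (SE 0.06, adjusted p = 0.00241). Every E4 mouse was above every E3 mouse for both. Ptpn11, the phosphatase SHP2 that acts downstream of growth factor receptors, was higher by only 0.20 (SE 0.04, adjusted p = 0.0479), yet its ranges of 223 to 239 CPM and 189 to 210 CPM did not meet. Adar, the enzyme that edits adenosine to inosine in double-stranded RNA, held 246 to 298 CPM against 204 to 240 CPM (log2 fold change 0.30, adjusted p = 0.0277).

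**Figure D2:**
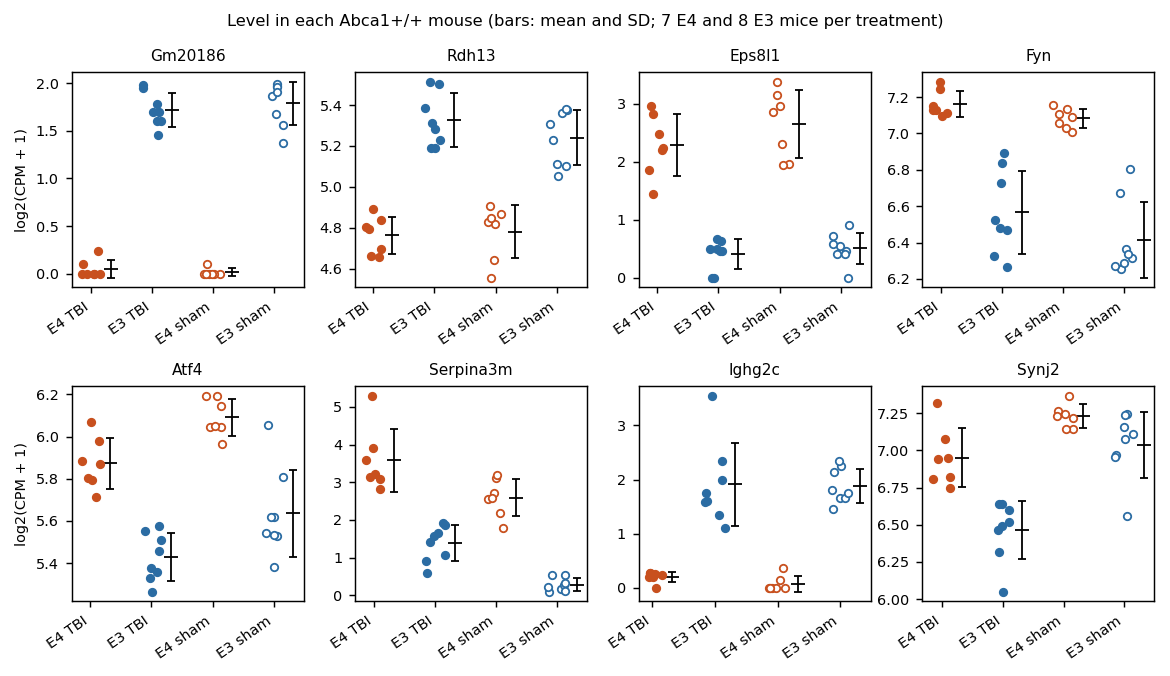
The level of 8 genes in each Abca1+/+ mouse as log2(CPM + 1), by group, with filled points for TBI and open points for sham and bars for the mean and SD. E4 and E3 TBI mice do not overlap for any of the 8 genes, and Gm20186 is at or near 0 in every E4 mouse of both treatments.

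Mboat7, Inpp5f, Synj2, Nudt3, Kirrel2 and Pcdhga12 were also higher in E4. Mboat7, which attaches arachidonic acid to phosphatidylinositol, held 120 to 148 CPM in E4 and 99.2 to 118 CPM in E3 (log2 fold change 0.30, SE 0.05, adjusted p = 0.0220). Inpp5f, a phosphoinositide phosphatase, held 119 to 134 against 85.7 to 115 CPM (0.32, SE 0.06, adjusted p = 0.0277). Synj2, a phosphoinositide phosphatase of the synaptojanin family, held 106 to 159 against 65.3 to 98.5 CPM (0.50, SE 0.10, adjusted p = 0.0333). Nudt3, which degrades inositol pyrophosphates, held 248 to 293 against 204 to 246 CPM (0.31, SE 0.05, adjusted p = 0.0142). E4 was above E3 without overlap for these 4 genes. Kirrel2, a cell adhesion molecule of the immunoglobulin superfamily, held 12.9 to 23.1 against 5.18 to 10.7 CPM (1.06, SE 0.18, adjusted p = 0.0120). Pcdhga12, a cell-surface cadherin of neurons, held 20.5 to 25.1 against 16.2 to 19.5 CPM (0.35, SE 0.07, adjusted p = 0.0363), and its span holds the other gamma protocadherins, which share exons with it.

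Among genes lower in E4, Pon2, an intracellular paraoxonase, held 41.8 to 66.2 CPM against 65.2 to 99.5 CPM in E3 (log2 fold change -0.54, SE 0.10, adjusted p = 0.0277), and 6 of 7 E4 mice lay below all E3 mice. Dctd, the dCMP deaminase, held 2.19 to 6.01 against 6.87 to 10.2 CPM (-0.94, SE 0.17, adjusted p = 0.0277), without overlap. Hrk, a BH3-only activator of cell death, held 86.0 to 118 against 111 to 139 CPM (-0.36, SE 0.07, adjusted p = 0.0304). Unc45a, a co-chaperone of myosin, held 24.2 to 28.2 against 28.0 to 34.3 CPM (-0.29, adjusted p = 0.0326). Wdfy1, a FYVE domain protein of early endosomes, fell by 1.43 (SE 0.26, adjusted p = 0.0277), but the groups overlapped: the E3 mice spread from 12.5 to 73.9 CPM and the E4 mice only from 13.3 to 18.5. Sox2ot, the noncoding RNA whose span holds Sox2, held 4.14 to 15.6 CPM in E4 (median 5.84) and 16.9 to 26.9 CPM in E3 (median 22.4; -1.29, SE 0.26, adjusted p = 0.0472). The E4 mice fell into a low set of 4 and a higher set of 3 (13.4 to 15.6 CPM), all below E3, and Sox2 itself differed by -0.13 (adjusted p = 0.892).

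The other 6 genes past the threshold were all higher in E4. AK010878, D430020J02Rik and Dlx1as, the antisense RNA of the homeobox gene Dlx1, had log2 fold changes of 1.18, 1.79 and 0.57, and 6, 6 and 5 of the 7 E4 mice lay above every E3 mouse. Dlx1, whose span Dlx1as overlaps, differed by -0.38 (adjusted p = 0.0707). Bex1, an X-linked gene of neurons, held 29.6 to 38.4 CPM against 21.2 to 28.98 CPM without overlap (adjusted p = 0.0198). Mfn2, the mitofusin that joins mitochondria, held 218 to 254 against 176 to 224 CPM (0.28, adjusted p = 0.0479). Dio2, the deiodinase by which astrocytes activate thyroid hormone, held 91.5 to 139 against 74.6 to 99.4 CPM (0.44, SE 0.09, adjusted p = 0.0492).

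The genes past the threshold were not spread evenly over the chromosomes. Chromosome 7, which carries Apoe, held 7 of its 1049 tested genes (0.667%) and chromosome 12 held 6 of 517 (1.16%), against 0.207% of all genes. On chromosome 7 they were not next to Apoe. Mboat7, Rdh13, D630041G03Rik and Eps8l1 lay within 0.803 Mb, about 15.2 to 16 Mb before Apoe, and were 4 of the 13 genes tested there. Rdh13, D630041G03Rik and Eps8l1 overlap one another and may share reads, so they are not separate observations in these counts. Kirrel2 lay 10.8 Mb beyond Apoe, Unc45a 60.6 Mb and Inpp5f 109 Mb. Within 5 Mb of Apoe on either side, 0 of 83 genes passed and 3 had an unadjusted p under 0.05 (edgeR). Among 23 tested genes of the Apoe neighbourhood none passed or had an unadjusted p under 0.05, among them Tomm40 (log2 fold change 0.09, adjusted p = 0.876) and Nectin2 (-0.05). On chromosome 12, AK010878, Serpina3h and Serpina3m lay within 1.64 Mb (3 of 15 tested genes), and the 13.7 Mb that run on to D430020J02Rik held 107 tested genes, 5 past the threshold and 20 with an unadjusted p under 0.05. The ends of these stretches on both chromosomes were set by genes past the threshold, after their values were seen.

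**Figure D3:**
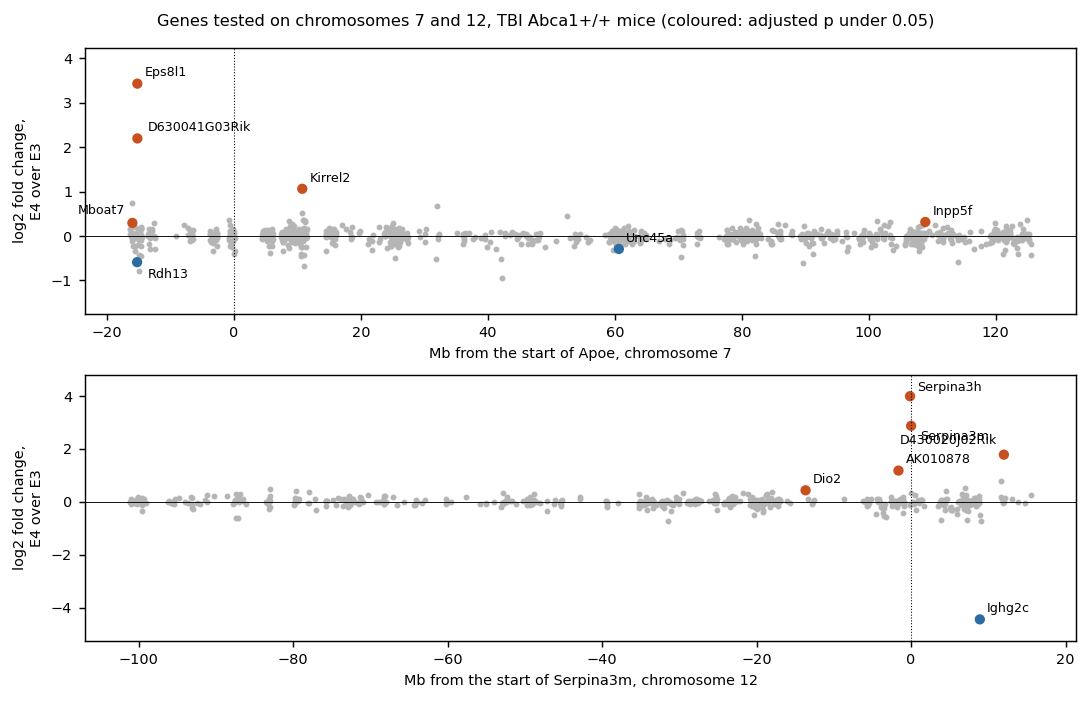
The log2 fold change of E4 over E3 in TBI Abca1+/+ mice (y axis) for each gene tested on chromosome 7 (upper, Mb from the start of Apoe) and chromosome 12 (lower, Mb from the start of Serpina3m), coloured where the adjusted p was under 0.05. On chromosome 7 no gene within 5 Mb of Apoe is coloured, and on chromosome 12 the 5 coloured genes from AK010878 to D430020J02Rik lie within 13.7 Mb.

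The sham mice are separate animals with the same genotypes, so they show whether a difference between the E4 and E3 mice was present without the impact. In sham Abca1+/+ mice 49 of 14172 genes (0.346%) passed, 30 higher and 19 lower in E4. Of the 29 genes from injured mice, 28 were tested in sham mice and all 28 had the same sign, against 62.2% of the other 13835 genes tested in both. Of these, 15 also passed in sham, 51.7% of the injured list and 30.6% of the sham list. The choroid plexus markers were uneven here too: E4 sham mice 5 and 7 had mean levels of 3.88 and 4.02, and the other 13 sham mice 0.708 to 1.47. Without those 2 mice 32 genes passed, 27 of the 28 kept the sign, Pcdhga12 excepted, and 12 passed. In turn 46 of the 49 sham genes were tested in injured mice, and 46 had the same sign. Gm20186 summed to 1 count in the E4 sham mice and 188 in the E3 sham mice. Fyn held 128 to 141 CPM in E4 sham and 75.5 to 111 CPM in E3 sham (log2 fold change 0.66, adjusted p = 3.24e-05), and Atf4 held 61.5 to 72.2 against 40.7 to 65.5 CPM (0.45, adjusted p = 0.00616). E3 sham mouse 8 alone held the 65.5 CPM of Atf4, and the next E3 sham mouse held 55.0 CPM. It was also the highest E3 sham mouse for Nudt3 (328 CPM), Bex1 (41.4 CPM) and Adar (312.5 CPM), but held 79.9 CPM of Fyn.

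The test of the difference between injured and sham mice gave 0 of 14505 genes (0%) past the threshold with edgeR and 0 with DESeq2, with 306 (2.11%) and 275 genes at an unadjusted p under 0.05. A gene whose isoform difference depended on the injury was thus not detected at this depth and number of mice. Serpina3m, at 1 to 3 counts in each E3 sham mouse, held 0.0747 to 0.464 CPM there and 2.43 to 8.11 CPM in E4 sham mice. Its summed counts of 334 and 14 gave a rate 27.6 times higher in E4 sham mice (95% exact interval 16.2 to 51.0), beside 6.6 times after injury (5.48 to 8.00). Both intervals cover counting error only, not the spread between mice. In the test between mice the change was -1.82 on the log2 scale (SE 0.73, unadjusted p = 0.0184, edgeR), and Serpina3m did not pass the adjusted threshold. Pcdhga12 and Synj2 had log2 fold changes of 0.03 and 0.19 between sham isoforms and of 0.35 and 0.50 after injury, but both were chosen for passing in injured mice, and the adjusted p of the change was 1 for each. Synj2 held 140 to 164 CPM in E4 sham (median 149.5) and 93.2 to 151 CPM in E3 sham (median 136), medians above those of the injured mice (122 and 89.8).

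The mice with 1 copy of Abca1 gave the same comparison in other animals. There 434 of 15121 genes (2.87%) passed between injured isoforms and 787 of 14920 (5.27%) between sham isoforms, in libraries of higher median depth (after TBI 15116304 counts in E4 and 19011838 in E3). Of the 29 genes, 28 kept their sign in injured Abca1+/- mice (52.7% of the other 13985 genes did) and 16 passed; in sham Abca1+/- mice 29 kept it (56.2% of 13941) and 25 passed. The genes passing in both were 55.2% and 86.2% of the 29 but 3.69% and 3.18% of the longer lists. In all 3 further comparisons 11 genes passed with the same sign: Gm20186, D630041G03Rik, Eps8l1, Rdh13, Fyn, Atf4, Serpina3m, AK010878, D430020J02Rik, Kirrel2 and Nudt3. Hrk, Synj2, Pcdhga12 and Dio2 passed in none of the 3. Ighg2c had the opposite sign in injured Abca1+/- mice (log2 fold change 2.17, adjusted p = 0.335), where E4 ranged from 0.281 to 66.5 CPM with a median of 0.534 and E3 from 1.35 to 2.79 with a median of 2.41. There 1 E4 mouse gave 2578 of the 2642 counts, and without it the rate was 3.67 times higher in E3 (95% exact interval 2.77 to 4.92), the direction of the other comparisons.

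**Figure D4:**
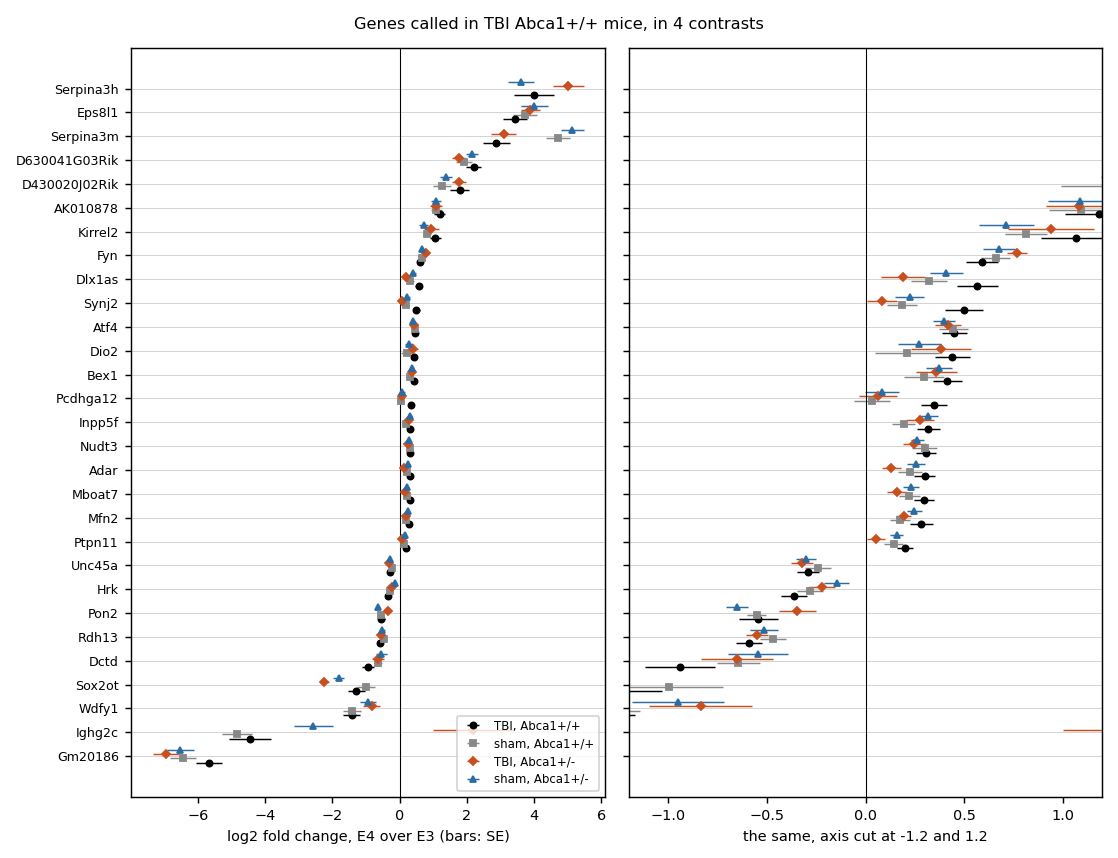
The log2 fold change of E4 over E3 with its SE for the 29 genes in 4 comparisons that share no mice (black circles TBI Abca1+/+, grey squares sham Abca1+/+, orange diamonds TBI Abca1+/-, blue triangles sham Abca1+/-), with a second axis from -1.2 to 1.2 for the small differences. All 4 symbols lie on the same side of 0 for 27 genes; Ighg2c changes side in TBI Abca1+/- mice and Serpina3h has no sham Abca1+/+ value.

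ATF4 switches on amino acid transporters, enzymes that make amino acids and the synthetases that load amino acids onto transfer RNA. It does so together with C/EBP factors at the composite element TGATGNAA, read on either strand. Of 28 tested genes of an ATF4 target list, Atf4 itself passed and 9 in all were higher and 1 lower at an unadjusted p under 0.05 (3.85% of all genes were higher at that p). The list's median log2 fold change was 0.03, against 0.00 over all genes. Chac1, the glutathione degrading enzyme induced by ATF4, held 6.25 to 9.81 CPM in E4 (median 7.07) and 3.17 to 6.12 CPM in E3 (median 5.03) without overlap, a log2 fold change of 0.61 (SE 0.14) whose adjusted p of 0.111 missed the threshold. Among the 22 aminoacyl-tRNA synthetase genes 17 lay above 0 and 5 below (48.7% of all genes lay above 0), 6 were higher at an unadjusted p under 0.05 and 0 passed, with a median of 0.05, beside 3.85% of all genes higher at that p. Cars, the cysteine enzyme, differed by 0.27 (SE 0.06, adjusted p = 0.0591), and Yars, the tyrosine enzyme, held 97.4 to 105 CPM against 80.5 to 93.8 CPM without overlap (0.17, SE 0.04, adjusted p = 0.167). The list medians were 0.10 and 0.05 in sham Abca1+/+, 0.13 and 0.08 in injured Abca1+/- and 0.11 and 0.09 in sham Abca1+/- mice.

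The element was looked for in RefSeq promoters (GRCm38.p6, both strands) in windows from 250 bases before to 50 after each start in the RefSeq promoter table. A gene can have several such starts, and a start can lie inside the gene's full span, as for Yars. The element was found in 3.97% of all 32851 windows and for 2.67% of the 10917 tested genes with a promoter in the table, but for 6 of 24 genes of the ATF4 list (25.0%) and 5 of 15 synthetase genes (33.3%). A match is a description of the letters, not a site in use. With the element 5 of 5 synthetase genes lay above 0, with a median log2 fold change of 0.15 against 0.04 in the 10 without it, but only 3 of the 6 ATF4 list genes did, with a median of 0.00 against 0.03 in the 18 without it. The genes of both lists with the element and an unadjusted p under 0.05 are shown, since they set the 2 lists' differences beside their sequence, read 5′ to 3′ on the gene's strand with the element in capitals.
Chac1 (chr2:119351019-119351086, plus strand): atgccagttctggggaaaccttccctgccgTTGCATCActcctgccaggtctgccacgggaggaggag
Yars (chr4:129189876-129189943, plus strand): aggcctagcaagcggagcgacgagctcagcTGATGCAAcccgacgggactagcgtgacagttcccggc
Iars (chr13:49682107-49682174, plus strand): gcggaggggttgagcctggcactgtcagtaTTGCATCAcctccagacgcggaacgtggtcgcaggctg
Pck2 (chr14:55540133-55540200, plus strand): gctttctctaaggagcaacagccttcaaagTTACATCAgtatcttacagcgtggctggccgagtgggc
Asns (chr6:7693195-7693262, minus strand): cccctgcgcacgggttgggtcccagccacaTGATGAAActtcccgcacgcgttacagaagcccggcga
Gars (chr6:55037941-55038008, plus strand): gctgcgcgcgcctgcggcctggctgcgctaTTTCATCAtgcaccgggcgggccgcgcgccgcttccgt
In injured mice the log2 fold changes of Yars, Iars and Gars were 0.17, 0.15 and 0.16 and that of Asns, asparagine synthetase, was 0.23. Pck2, the mitochondrial phosphoenolpyruvate carboxykinase, has the element and lay at -0.22 (unadjusted p = 0.00310).

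Glial and immune lists held few differences between injured isoforms. Among 19 genes of homeostatic microglia 4 lay above 0 and 15 below (48.7% of all genes lay above 0), with 0 past the threshold and a median of -0.07. For 24 genes of disease-associated microglia, which clear lipid and debris, 2 lay above and 22 below, with 0 past the threshold, a median of -0.10 and 0 at an unadjusted p under 0.05. The same list had a median of 0.58 between the isoforms in injured Abca1+/- mice. Complement genes had a median of -0.10 (16 tested) and reactive astrocyte genes of -0.08 (22 tested), 0 past the threshold in each. The spread between mice was wide. An injury index, the mean log2(CPM + 1) of 18 glial injury genes, ran from 4.92 to 6.96 in E4 (median 5.22) and from 5.05 to 6.46 in E3 (median 5.69), against 2.92 to 3.29 in sham Abca1+/+ mice. E4 mice 6 and 7, both female, stood at 6.96 and 6.31 and the other 5 between 4.92 and 5.22. With the index as a covariate 40 genes passed (26 higher, 14 lower), and the medians of these lists turned to the other side of 0, from 0.026 for homeostatic microglia to 0.035 for disease-associated microglia, with complement and reactive astrocytes between. The index is itself made of glial injury genes. It shares genes with these lists, among them Aif1 with disease-associated microglia, C4b with complement and Serpina3n with reactive astrocytes. The medians with the covariate are thus not independent of the index.

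Myelin genes lay on 1 side. All 15 tested members had a log2 fold change above 0 and 11 were higher at an unadjusted p under 0.05. Over all genes 48.7% lay above 0 and 3.85% were higher at that p. The median of the list was 0.26 and 0 passed the adjusted threshold. Mbp, myelin basic protein, held 1088 to 1565 CPM in E4 (median 1370) and 976 to 1262 CPM in E3 (median 1149; log2 fold change 0.29, SE 0.07, adjusted p = 0.135), and 6 of 7 E4 mice lay above all E3 mice. Mobp differed by 0.31 (SE 0.08, adjusted p = 0.253). Of 11 genes of thalamus and striatum, regions beneath the dissected tissue, 8 lay above 0, with a median of 0.19 and 0 past the threshold, and their summed level was 255 to 361 CPM in E4 and 251 to 341 CPM in E3; their part in the myelin difference was not tested. The mean level of the myelin list overlapped between groups, 6.34 to 6.86 in E4 and 6.19 to 6.69 in E3. The median log2 fold change was 0.17 in sham Abca1+/+, 0.16 in injured Abca1+/- and 0.09 in sham Abca1+/- mice.

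**Figure D5:**
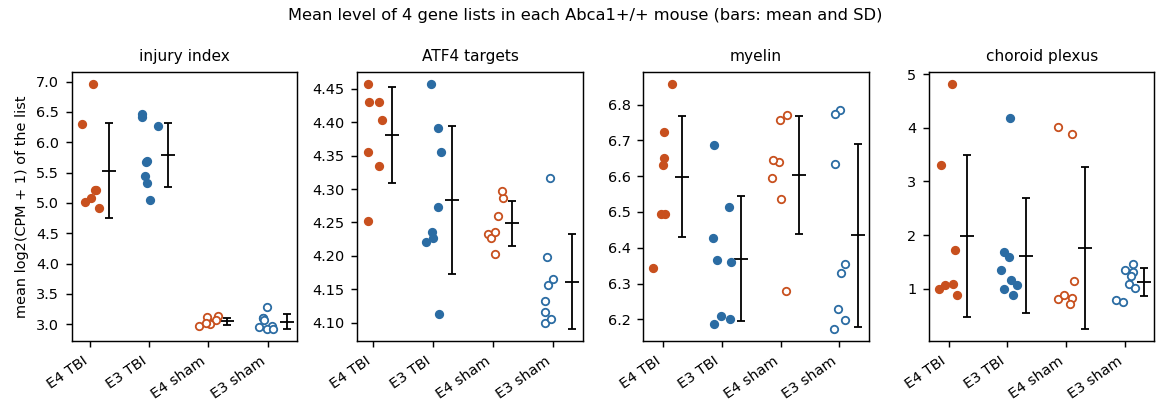
The mean log2(CPM + 1) of 4 gene lists in each Abca1+/+ mouse, by group, with bars for the mean and SD. The injury index separates TBI from sham but not the isoforms, ATF4 targets and myelin overlap between isoforms, and 3 TBI mice and 2 E4 sham mice stand high for choroid plexus genes.

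Genes of the lipid pathway around APOE differed little. Of 17 genes of cholesterol efflux and its LXR regulators 7 lay above 0 and 0 passed, the smallest unadjusted p being that of Scd1, the stearoyl-CoA desaturase (0.23, SE 0.07, adjusted p = 0.402). The 15 tested genes of the LDL receptor family, which take up APOE, had a median of -0.03 and 0 passed or had an unadjusted p under 0.05. Sterol synthesis genes had a median of 0.04 (23 tested), with 3 higher at an unadjusted p under 0.05, among them Srebf2 (0.19) and Hmgcs1 (0.21), beside 3.85% of all genes. ER chaperones lay above 0 in 18 of 21 cases, with a median of 0.17, 4 at an unadjusted p under 0.05, all higher, among them Herpud1 (0.22) and Manf (0.27), and 0 past the threshold, beside 48.7% of all genes above 0 and 3.85% higher at that p.

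Lists of neuron types and synaptic receptors were centred near 0. The median was -0.01 over 15 excitatory neuron genes, 0.04 over 15 interneuron genes and 0.00 over 19 synaptic receptor genes, and 0 passed in each. Lamp5, a marker of a class of interneurons, had 68.3 to 99.6 CPM in E4 against 52.3 to 79.2 CPM in E3 (0.36, SE 0.10, adjusted p = 0.235). Of 21 immediate early genes, which follow neuronal activity, 16 lay above 0, with a median of 0.09. Of these genes 4 were higher at an unadjusted p under 0.05 and 0 passed, the smallest p being that of Egr3 (0.38, SE 0.11, adjusted p = 0.301). Over all genes 48.7% lay above 0 and 3.85% were higher at that unadjusted p.

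Y-linked genes separated the E4 from the E3 males, whose lines cannot be told apart from their isoforms here. In the 4 E4 and 4 E3 injured males Kdm5d, a histone demethylase, held 37.9 to 49.6 and 22.4 to 23.6 CPM, a log2 fold change of 0.98 (SE 0.09, adjusted p = 0.00017, edgeR in males alone). Ddx3y, an RNA helicase, held 131 to 161 against 71.9 to 86.4 CPM (0.91, SE 0.08, adjusted p = 0.00017). Uty, a histone demethylase relative, differed by 0.83 (SE 0.10, adjusted p = 0.00265) and Eif2s3y, a translation initiation factor subunit, by 1.03 (SE 0.15, adjusted p = 0.00923). The ranges did not overlap for any of the 4 genes. The share of all genes without overlap among so few males was not counted, so this describes the 4 genes only. The same held for E4 and E3 males in each further comparison, for example 39.1 to 44.8 against 21.3 to 23.2 CPM for Kdm5d in sham Abca1+/+ males and 39.9 to 51.8 against 21.3 to 23.7 CPM in injured Abca1+/- males. Over both sexes together, with no term for sex in the fit, the adjusted p was 0.892 for Kdm5d and 0.884 for Eif2s3y. With sex as a covariate it was 0.000797 for Kdm5d and 0.0234 for Eif2s3y (edgeR). Ddx3y and Uty were named after their values were seen.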

How the data were processed

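RNA was sequenced from cortex and hippocampus of 58 mice, and the groups came from the sample labels. The authors deposited 1 table of read counts per gene, not normalized, made with Subread and featureCounts 1.5.0 on mm10; annotation and strand setting are not given in the sources used here. The table lists 15171 genes in 58 mice; 2 blank lines were removed and 23 symbols changed to dates were named by identifier. Positions came from RefSeq GRCm38.p6 (14999 genes matched) and GENCODE vM21.

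Genes were filtered with filterByExpr (14014 kept for the injured Abca1+/+ mice), scaled with TMM and compared with edgeR's quasi-likelihood test (edgeR 4.0.16, R 4.3.3), using the mice of the 2 groups compared; the injured against sham test used 4 groups. Adjusted p-values are Benjamini-Hochberg over all genes tested, with a threshold of 0.05. The SE is the log2 fold change over the square root of the F statistic. Exact intervals pool counts over mice and cover counting error only. CPM values are TMM scaled over all 58 mice. DESeq2 1.42.0 and edgeR's exact test were alternatives. List levels are means of log2(CPM + 1). Whether mice shared a litter or cage is not stated, so p-values measure the spread between these animals.

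The genes named were the 10 with the smallest p and the 5 with the largest change in each direction past the threshold, Apoe, Abca1, members of 36 gene lists (up to 4 past the threshold, or those with the smallest p until 2 were named) and neighbours of Apoe; the other genes past the threshold, Ddx3y, Uty, the Serpina3 paralogs and overlapping genes, 4833420G17Rik and the promoter genes were added after their values were seen. Members and lists were chosen with earlier results of these data known.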

Additional observations from a re-analysis of the deposited data

Results flagged for a closer look

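A mouse is listed where its CPM stood far from the others of its group by Dixon's criterion. Among 208 pairs of a gene and a group this was so for 28, and chance gives about 1 in 20 for values with a normal spread. The E4 mouse 2 was highest for Slc6a11 (376 CPM), Slc32a1 (112 CPM), Olig1 (122 CPM), Tcf7l2 (32 CPM), Chac1 (9.81 CPM), Gemin7 (23.4 CPM), Clptm1 (209 CPM) and Tomm40 (67.5 CPM). Tcf7l2, a marker of thalamus, was at most 9.57 CPM in the other E4 mice.

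The E4 mouse 6 was highest for Serpina3m (38.3 CPM), Cd59a (14.0 CPM), Ciita (3.02 CPM), Apoc1 (9.80 CPM) and the choroid plexus genes Kl (96.7 CPM) and Prlr (36.0 CPM). The E3 mouse 7 was highest for the same 2 choroid plexus genes, Kl (61.1 CPM) and Prlr (23.9 CPM), and for Slc32a1 (68.5 CPM). The E3 mouse 8 was highest for Slc6a11 (231 CPM), Slco1a4 (83.8 CPM) and Clasrp (42.5 CPM) and lowest for Yars (80.5 CPM).

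Among the other mice, Serpina3h was highest in E4 mouse 7 (21.7 CPM), where Ighg2c was lowest (0 CPM), and Ighg2c was highest in E3 mouse 1 (10.7 CPM). Gm20186 (0.177 CPM) and Grp (19.3 CPM) were highest in E4 mouse 5, Myh11 in E4 mouse 3 (11.9 CPM), and Acsbg1 was lowest in E4 mouse 4 (153 CPM). The Gm20186 value was 1 count, as in E4 mouse 3. The lowest Ighg2c value was 0 counts beside 1 to 3 in the other E4 mice, so both flags lie at the floor of the counts. No gene passed the test of a difference between injured and sham mice, where 0 of 14505 passed with edgeR (306 at an unadjusted p under 0.05) and 0 with DESeq2.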

How the results depend on the processing

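Genes between injured isoforms with Abca1+/+ (29, 20 higher and 9 lower) numbered 91 (54 and 37) in 1 fit over all 58 mice, 63 (38 and 25) with the DESeq2 Wald test, 53 (31 and 22) with the exact test of edgeR and 1 (0 and 1) in females alone. The injury index as a covariate gave 14 lower genes. Chosen after seeing the data, leaving out the 3 mice high in choroid plexus markers gave 16 (11 and 5). Leaving out each mouse in turn gave 15 to 32 genes, 11 to 21 higher and 3 to 11 lower. DESeq2's size factors gave 29, no filter 32, at least 1 CPM in 6 mice 29, sex as a covariate 39 and males alone 41. In sham Abca1+/+ mice (49) the Wald test gave 109, the fit over all mice 91 and, chosen after seeing the data, leaving out 2 mice high in choroid plexus markers 32, in injured Abca1+/- mice (434) the Wald test gave 906 and the fit over all mice 899, and in sham Abca1+/- mice (787; alternatives chosen after seeing the data) the Wald test gave 1364. The difference between injured and sham gave 0 genes under all 6 alternatives, with 275 to 422 at an unadjusted p under 0.05. The cause of these shifts was not tested.

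Of the 29 genes, 13 passed in every fit without 1 mouse in which they were tested. Ighg2c was tested in only 8 of the 15 such fits. Of the 13 genes, 11 also passed in every other alternative, with females alone and the omission of the 3 choroid-rich mice left aside. In females alone none of the 11 passed, and Serpina3h was not tested there. Without the 3 choroid-rich mice Kirrel2 did not pass (adjusted p = 0.085, edgeR), and the others of the 11 did. The 28 genes tested in both sexes had the same sign in males and in females. Of 2744 log2 fold changes of named genes over the alternatives, 0 past the threshold changed sign and 208 lost the threshold. Cars passed under 5 alternatives, Mbp under 3, Chac1 under 3 and Yars under 2. Low counts limit Gm20186, Ighg2c, Eps8l1, Serpina3h and, in sham mice, Serpina3m, with at most 7 counts for Eps8l1 and 10 for Serpina3h in an E3 mouse. No paired analysis was possible because replicate numbers were only names in accession order.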

Other observations

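Of 20 tested genes of scar matrix 18 were below 0, with a median log2 fold change of -0.13, 0 past the threshold and 1 lower at an unadjusted p under 0.05, Col4a2 (-0.26, SE 0.09, adjusted p = 0.459), a chain of basement membrane collagen. Over all genes 48.7% lay above 0. All 9 pericyte genes were below 0, with a median of -0.09 and 0 at an unadjusted p under 0.05 (edgeR). Of 15 endothelial genes 10 were above 0, with a median of 0.03. With the injury index as a covariate the medians were 0.00 for scar matrix and -0.04 for pericytes.

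Of 20 interferon-stimulated genes 16 lay above 0 (48.7% of all genes did), with a median of 0.12 and 0 at an unadjusted p under 0.05. Of 13 MHC class I genes 11 lay below, with a median of -0.09 (0.05 with the injury index as a covariate), and of 17 amyloid precursor processing genes 14 lay above, with a median of 0.06 and 0 past the threshold. Aplp1, a relative of the amyloid precursor, held 1249 to 1535 CPM in E4 and 1111 to 1307 CPM in E3 (0.13, adjusted p = 0.507). Of 13 mitochondrially encoded genes 10 lay below 0, with a median of -0.07 in injured and 0.13 in sham Abca1+/+ mice.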
